A study of Mus musculus with 127 samples.

Results

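The genome positions of 6 genes were examined in single nuclei of mouse embryonic stem cells: Pou5f1, Nanog, Sox2, Klf4, Esrrb and Zfp42, out of 20665 protein-coding genes annotated on the autosomes. They were chosen as the core genes of the pluripotency network, and a locus was taken as every 10 kb window whose start lies within 500 kb of the gene's lower coordinate in mm10, so that each locus held 100 windows. The rule itself uses no measured value, but the genes were picked with earlier results of these data known. The cells were the F123 line, a hybrid of the CAST and 129 strains, kept in medium with leukemia inhibitory factor (LIF) on mouse embryonic fibroblast feeders and passaged without feeders before use. In sequential genome architecture mapping, 1 nucleus is cut into consecutive thin slices, and the DNA of each slice is amplified and sequenced as a nuclear profile. Of 127 libraries, 122 were nuclear profiles of 10 nuclei, 1 was a negative control and 4 were positive controls; the controls have no position values here. Nuclei Cell17, Cell18, Cell19 and Cell20 carry the batch name B16F and were covered by 23, 16, 12 and 12 profiles. Nuclei Cell25, Cell26, Cell27, Cell28, Cell38 and Cell39 carry the name B18F and were covered by 15, 7, 8, 8, 10 and 11 profiles. There was no treatment and no second genotype, so the nuclei form a single group, and every comparison below sets a locus against other parts of the genome in the same nucleus. Whether the nuclei were taken from different cultures is not stated, and each p-value reflects only how these 10 nuclei vary. The files hold no expression values, so the identity of the cells could not be checked against marker genes.

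Pluripotent cells are held in their self-renewing state by a small set of transcription factors. Pou5f1 (Oct4) and Sox2 encode partners that bind DNA together at composite octamer and Sox motifs, and Nanog encodes a homeodomain factor that stabilises the naive state. Klf4 and Esrrb encode a zinc finger factor and an orphan nuclear receptor that act in support of these 3, and Zfp42 (Rex1) encodes a zinc finger protein widely used as a marker of naive cells. In embryonic stem cells these genes are active and are regulated by nearby enhancers, some of them in clusters known as super-enhancers.

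The start regions of Nanog, Sox2 and Zfp42 are shown because they carry short matches to the sites of the factors that these genes encode, and that of Pou5f1 is shown for contrast. The sequences are RefSeq's for GRCm38.p6, whose primary chromosomes are those of mm10, and each gives the 250 bases before the annotated start on the gene's own strand. All 6 genes matched an entry. Capitals mark matches, on either strand, to the octamer core TTTGCAT or the Sox core ACAATG.

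Pou5f1, chr17:35505782-35506031, plus strand: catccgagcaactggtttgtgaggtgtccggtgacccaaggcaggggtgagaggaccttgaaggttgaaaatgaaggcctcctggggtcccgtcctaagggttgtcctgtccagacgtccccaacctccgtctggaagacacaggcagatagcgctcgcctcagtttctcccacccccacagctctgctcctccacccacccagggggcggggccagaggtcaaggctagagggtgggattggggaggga

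Nanog, chr6:122707239-122707488, plus strand: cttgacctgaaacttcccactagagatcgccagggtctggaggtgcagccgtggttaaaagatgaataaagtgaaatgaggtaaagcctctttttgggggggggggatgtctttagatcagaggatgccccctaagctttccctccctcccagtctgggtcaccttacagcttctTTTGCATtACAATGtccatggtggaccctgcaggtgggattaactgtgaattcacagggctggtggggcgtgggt

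Sox2, chr3:34649745-34649994, plus strand: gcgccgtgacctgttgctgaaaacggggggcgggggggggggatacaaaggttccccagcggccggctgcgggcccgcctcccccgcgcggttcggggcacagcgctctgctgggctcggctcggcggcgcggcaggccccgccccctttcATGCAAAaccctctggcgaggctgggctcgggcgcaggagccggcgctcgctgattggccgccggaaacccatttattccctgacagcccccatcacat

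Zfp42, chr8:43307010-43307259, minus strand: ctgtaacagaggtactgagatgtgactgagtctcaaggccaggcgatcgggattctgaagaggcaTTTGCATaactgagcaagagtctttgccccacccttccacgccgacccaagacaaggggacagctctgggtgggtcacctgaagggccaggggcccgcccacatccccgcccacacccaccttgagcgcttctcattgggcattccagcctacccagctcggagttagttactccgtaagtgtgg

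The octamer core was found in 3 of the 6 windows, beginning 75 bases before the start of Nanog, 99 before Sox2 (on the reverse strand) and 185 before Zfp42. It occurred in 4.13% of 32851 mouse promoter windows of the same length. In Nanog a Sox core began at 67 bases before the start, with 1 base between it and the octamer core, and 10.7% of promoter windows held a Sox core. Neither core was in the windows of Pou5f1, Klf4 and Esrrb. The Klf core CCNCNCCC was found in all 6 windows, between 3 and 9 times, but also in 45.9% of all windows, and overlapping matches were counted separately. These matches are descriptions of letters, and no file here holds factor binding.

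Each nucleus has 2 deposited position lists, numbered 0 and 1, in which a 10 kb window that was located has a position along the slicing axis. What separates the lists is not given in the sources used here. The unit of the axis is not named either; positions fell mostly on a grid with a step of 0.2, and 28.0% of all located autosomal windows lay between grid points. No read counts accompany the positions, so the depth behind each one is unknown. The 20 lists held 1132635 located autosomal windows, from 52534 in Cell39 to 172914 in Cell25. The 6 loci contributed 3297 of them, from 166 in Cell39 to 555 in Cell26. At the loci, 660 windows were located in both lists of a nucleus and 332 of these had the same position in both, 50.3% against 49.6% over all autosomal windows. In Cell39, 81.6% of all autosomal windows lay in the highest 20% of the axis, and in Cell26 48.6% lay in the lowest 20%. These nuclei stand apart from the rest, and values without them are given beside the results for the loci and pairs that move most with them.

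The first comparison asked how fully each locus was located. Coverage is the percent of window slots with a position, over both lists and over windows located at least once in the 20 lists, and it was set against the rest of the same chromosome in the same nucleus. The test is an exact two-sided sign-flip permutation test over nuclei. With 10 nuclei its smallest possible p is 0.00195. Adjustment was by Benjamini-Hochberg over all 1 Mb tiles of the autosomes together with the loci and the other genes tested. A locus is called past the test at an unadjusted p under 0.05. Of 2410 tiles, 3.49% were called higher than their chromosome and 8.09% lower. Of the 6 loci, 1 was called higher and 0 lower, and no locus or tile passed after adjustment, where the smallest adjusted p was 0.16. The median difference was 4.98 percentage points over the 6 loci and -0.42 over the tiles.

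Pou5f1 (chr17:35506032-35510777) was the locus called higher. Its coverage was 17% at the lowest, in Cell39, 37.8% at the median and 44.5% at the highest, in Cell27. It lay above the rest of chromosome 17 in 10 of 10 nuclei, from Cell20, where 17.5% stood against 17.3%, to Cell27, where 44.5% stood against 26.8%. The mean was 33.6% ± 10.3 (SD, n = 10) against 25.7% for the chromosome, a difference of 7.81 ± 5.69 percentage points (exact sign-flip permutation p = 0.00195, adjusted p = 0.16). With the windows of list 1 alone the difference was 6.06 ± 15.98 and the call was lost (exact sign-flip permutation p = 0.254). With list 0 alone it was 9.56 ± 12.8 (exact sign-flip permutation p = 0.0254).

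The Pou5f1 locus is also the densest in genes among the 6. It lies in the mouse major histocompatibility complex and holds 62 protein-coding genes, among them H2-D1 and members of the H2-Q group, which encode class I antigen-presenting molecules, and Tnf, which encodes an inflammatory cytokine. A median tile holds 6, and 99.8% of tiles hold fewer than the Pou5f1 locus. Across 2410 tiles, which share the same 10 nuclei and lists, the coverage difference and the number of protein-coding genes had a Spearman correlation of 0.31. Of the 286 tiles with at least 20 protein-coding genes, 7.34% were called higher, against 1.06% of the 852 tiles with at most 3. The part of gene density in the Pou5f1 value was not tested.

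Sox2 (chr3:34649995-34652461) is the only protein-coding gene of its locus. Its coverage ran from 10.1% in Cell39 through a median of 29.3% to 45.5% in Cell19, and it was above the rest of chromosome 3 in 6 of 10 nuclei. The difference was 5.79 ± 8.01 percentage points (exact sign-flip permutation p = 0.0586). Nanog (chr6:122707489-122714633) lies among 20 protein-coding genes, including Dppa3 and Gdf3, which are expressed in pluripotent cells. Its coverage ran from 15.5% in Cell39 through a median of 28.8% to 82.5% in Cell26, and 8 of 10 nuclei lay above the rest of chromosome 6. The difference was 7.07 ± 14.8 (exact sign-flip permutation p = 0.082) and 2.65 ± 5.16 without Cell26 (exact sign-flip permutation p = 0.164). Without Cell25, which lay below its chromosome, the difference was 8.76 ± 14.6 and would be called (exact sign-flip permutation p = 0.00781). The value in Cell26 exceeded that of 99.7% of tiles in that nucleus and of 100% of the tiles on chromosome 6.

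Klf4 (chr4:55527137-55532475) had the lowest mean coverage, 21.4% ± 7.27, with a range from 11.4% to 34.2% and a median of 20.1%. It lay above chromosome 4 in 5 nuclei and below it in 5, with a difference of -2.87 ± 7.26 (exact sign-flip permutation p = 0.25) and -1.16 ± 5.15 without Cell25, where 20.7% stood against 38.9%. Esrrb (chr12:86361117-86521628) was the most variable locus. Its coverage was 71.5% in Cell28 and 67.5% in Cell26, with a median of 20%, and it fell to 8% in Cell18 and 6.5% in Cell20. Only 3 of 10 nuclei lay above chromosome 12, and the difference was 4.17 ± 18.1 (exact sign-flip permutation p = 0.498). It rested on the nuclei with the highest values: without Cell26 it was 0.0462 ± 13.3, and without Cell28 0.956 ± 15.8. The mean was -6.52 in the 4 nuclei of B16F and 11.3 in the 6 of B18F, a contrast that an exact permutation of the batch names over 210 splits did not separate (p = 0.143).

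Zfp42 (chr8:43295067-43307009) had a coverage from 13% in Cell39 through a median of 24.2% to 40.8% in Cell25. It was above chromosome 8 in 7 of 10 nuclei, with a difference of 0.97 ± 5.35 (exact sign-flip permutation p = 0.617). In Cell28 it lay 12.9 percentage points below its chromosome. Without Cell28 the difference was 2.51 ± 2.36 (exact sign-flip permutation p = 0.0156), and without the windows located in both lists it was 4.07 ± 3.17 (exact sign-flip permutation p = 0.00391), so the call depends on that nucleus and on those windows.

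In order of mean coverage the loci were Pou5f1, Nanog, Esrrb, Sox2, Zfp42 and Klf4. No neighbours in that order were separated, the smallest of 5 exact sign-flip permutation p-values being 0.299. Neighbours were picked from the same order, which keeps their differences small, so no conclusion is drawn from these tests. The ends of the order differed by 12.2 ± 8.77 percentage points, with Pou5f1 above Klf4 in 9 of 10 nuclei; these ends were picked from the order, so no test is attached to that difference.

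**Figure D1:**
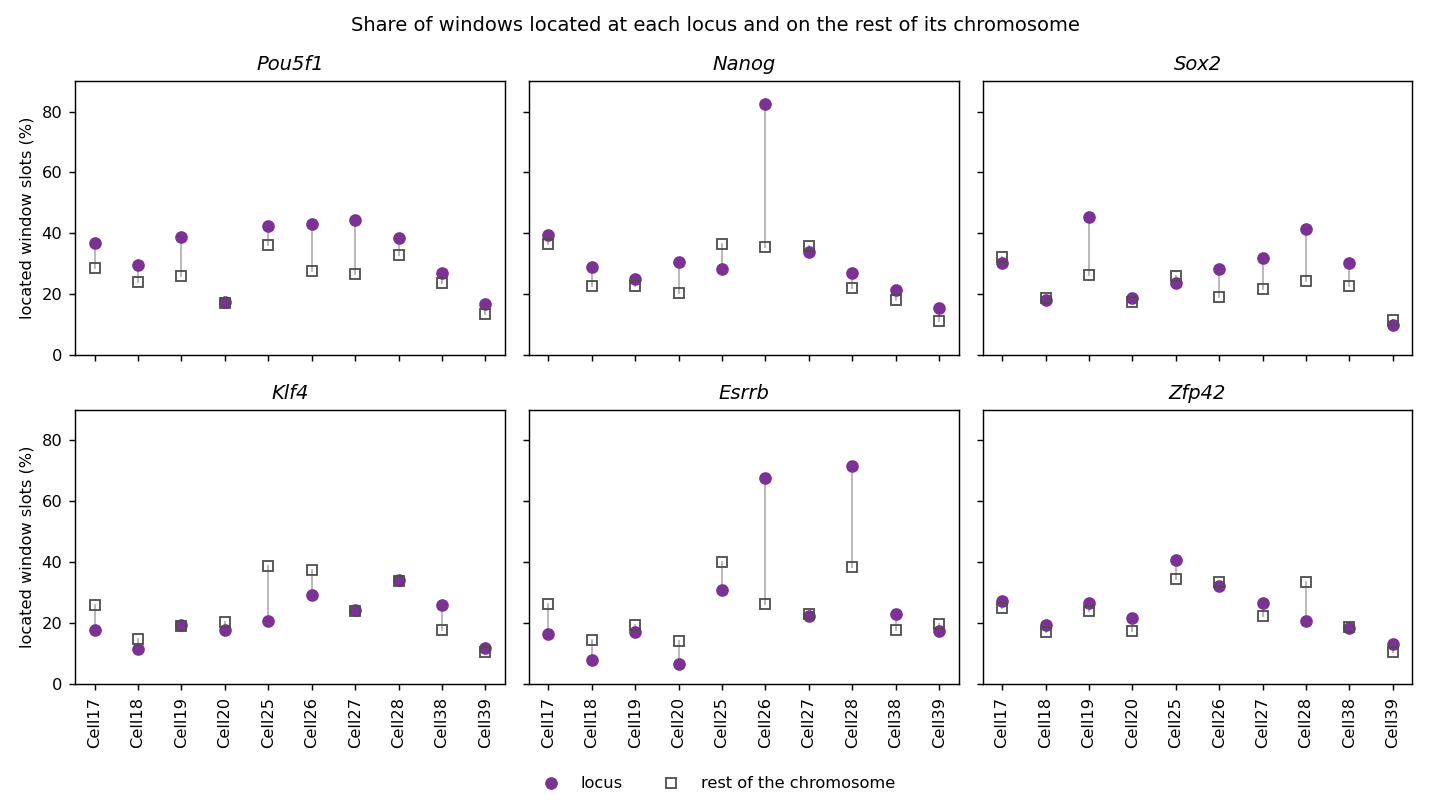
Percent of window slots located (vertical axis) at each of the 6 loci (filled circles) and over the rest of the same chromosome (open squares) in each of 10 nuclei (horizontal axis). Every Pou5f1 point lies above its square. The highest point of Nanog (82.5%) comes from Cell26, and the highest of Esrrb come from Cell28 (71.5%) and Cell26 (67.5%).

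Coverage was also uneven within the loci. The 10 kb window that holds the gene's own start was located in 13 of 20 lists for Esrrb, 7 for Nanog, 6 for Klf4, 4 for Pou5f1, 4 for Sox2 and 2 for Zfp42. Over all windows of the gene body, 37.5% of slots were located for Klf4, 35% for Nanog, 30.6% for Esrrb (17 windows), 27.5% for Pou5f1 and 15% for Sox2. Zfp42 stood at 5%, and 1 of its 2 gene body windows was never located in any nucleus. Such windows count in these gene body shares, but not in coverage or in the 100 kb steps below. With 2 windows a gene, apart from Esrrb, these shares rest on few slots.

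The low value at Zfp42 was not limited to the gene. From 100 kb below to 200 kb above the gene's lower coordinate, the located share was 17.2%, 15% and 11.5% in successive 100 kb steps. In the following 3 steps it was 36.5%, 33.3% and 29%. Windows that were never located numbered 8 at Zfp42, 8 at Klf4, 1 at Sox2 and 0 at Pou5f1, Nanog and Esrrb. At Pou5f1 the highest step, 46.5%, lay from 200 to 100 kb below the gene, and at Nanog the highest, 47%, lay from 200 to 300 kb above it. Whether sequence content or mappability moves with these values was not tested.

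**Figure D2:**
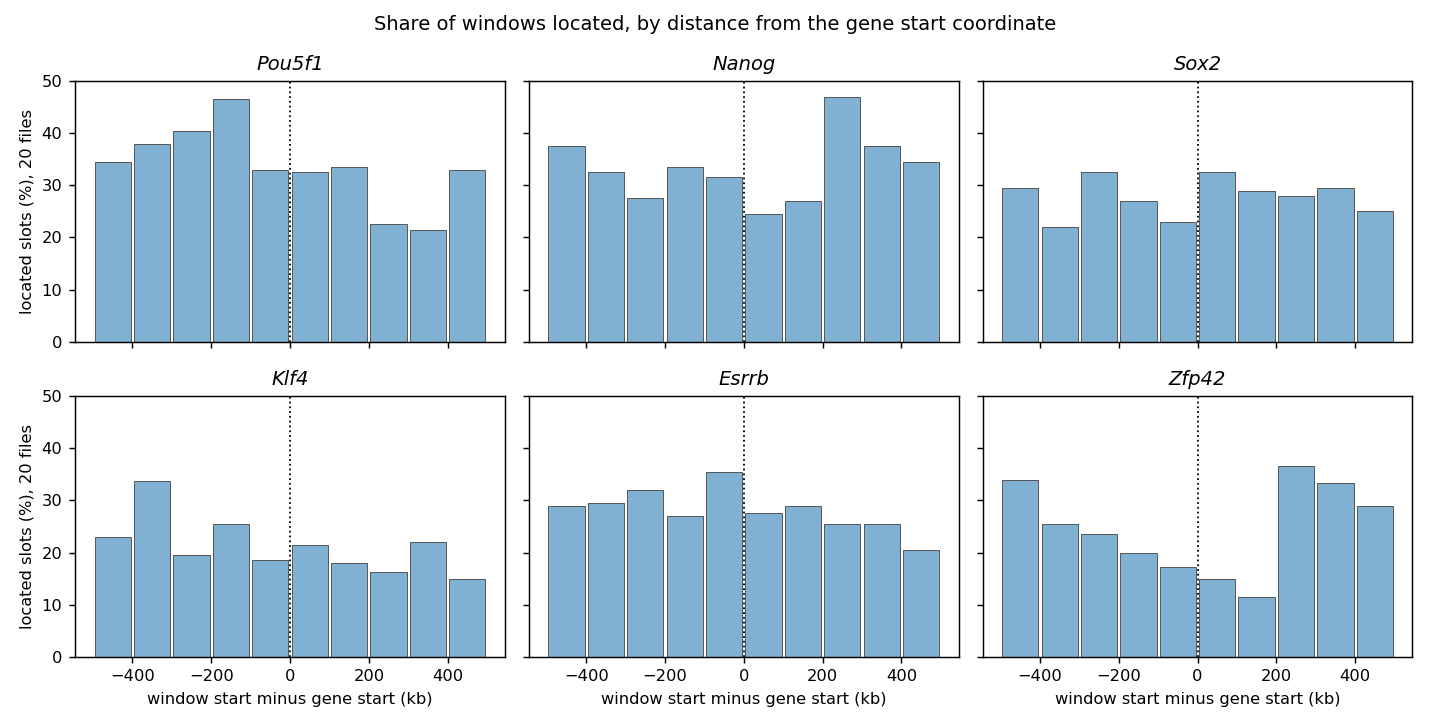
Percent of window slots located over the 20 lists (vertical axis) in 100 kb steps of distance from the lower coordinate of each gene in kb (horizontal axis, dotted line at 0). At Zfp42 the share drops to 11.5% between 100 and 200 kb and is 36.5% in the next step.

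Positions were expressed as percent of the axis sampled in each nucleus, from its lowest to its highest position. The orientation of the axis is not given, so positions are compared within a nucleus only. Lowest and highest can be swapped between nuclei, so only a place at either end of the order is compared. The loci at the ends changed with the nucleus. Nanog was at an end in Cell17, Cell18, Cell25, Cell26, Cell27 and Cell28. Esrrb was at an end in Cell17, Cell19, Cell20, Cell28 and Cell39. Sox2 was at an end in Cell19, Cell26, Cell27 and Cell38, Klf4 in Cell18, Cell20 and Cell38, and Pou5f1 in Cell25 and Cell39. Zfp42 was at neither end in any of the 10 nuclei. The distance from the lowest to the highest mean position ran from 14.3 points of the axis in Cell20 to 66.9 in Cell26.

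In Cell26 the loci fell far apart. Nanog had a mean position of 9.1% of the axis and Esrrb 9.97%, Zfp42 23.8%, Klf4 36.3%, Pou5f1 48.4% and Sox2 76%, with a mean of 31.5% for all windows of that nucleus. At Nanog 92.7% of 165 located windows and at Esrrb 94.8% of 135 lay in the lowest 20% of the axis, where 48.6% of all windows of the nucleus lay. Their chromosomes also lay low, with a mean position of 21.6% for chromosome 6 and 19.7% for chromosome 12. At Sox2 57.1% of 56 windows lay in the highest 20%, where 5.9% of all windows of the nucleus lay. In Cell39 most loci fell together. Pou5f1, Zfp42, Sox2, Klf4 and Nanog had mean positions between 92.9% and 96.4% of the axis, Esrrb stood at 66.7%, and the mean over all windows of that nucleus was 85.3%. Nanog, Klf4 and Esrrb lay near the means of their own chromosomes, which were 95.3%, 95.6% and 69.0%. Sox2, Pou5f1 and Zfp42 lay above theirs, which were 86.3%, 82.3% and 71.55%.

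**Figure D3:**
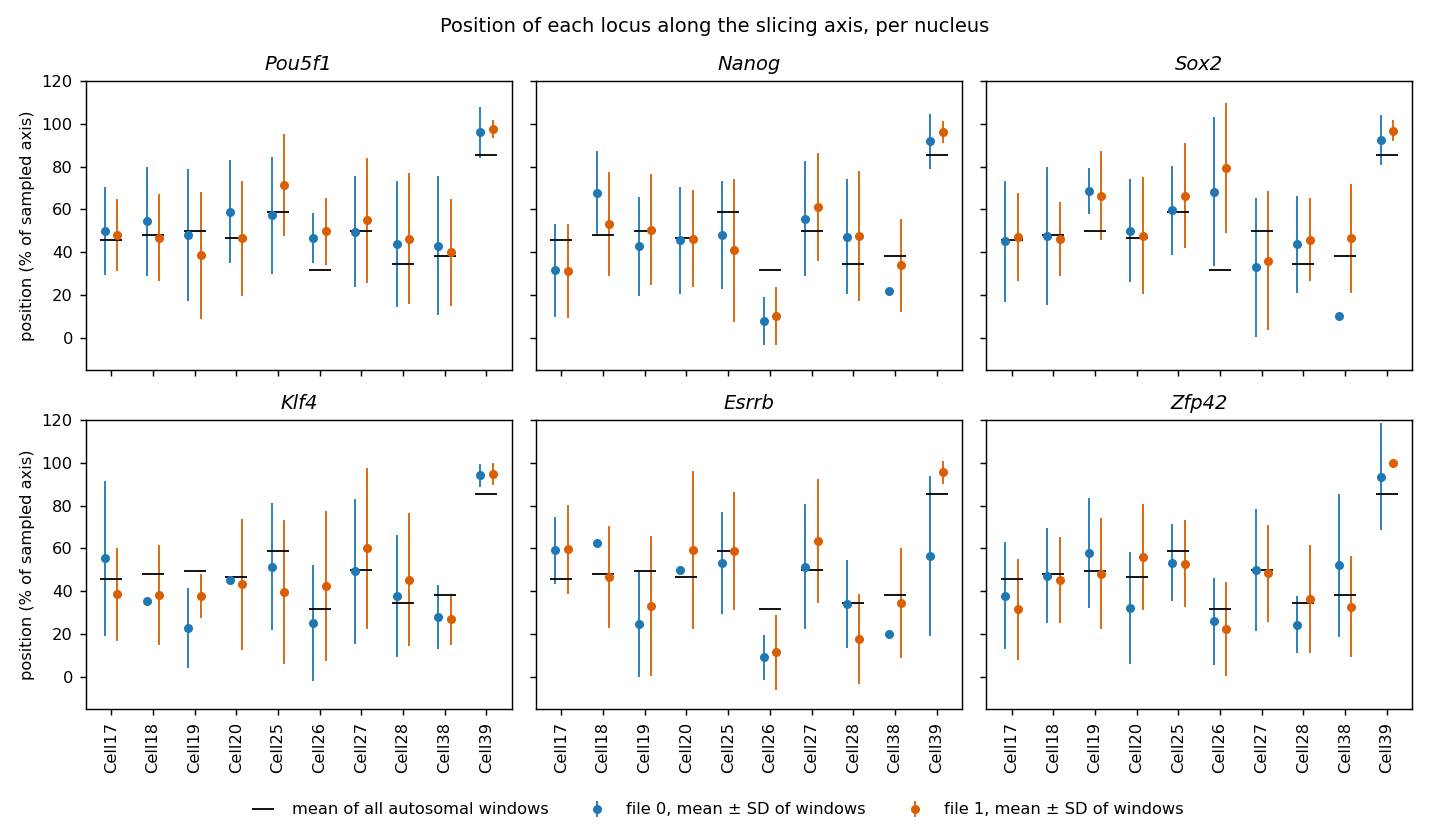
Mean position of each locus in percent of the sampled axis (vertical axis) in each of 10 nuclei (horizontal axis), for list 0 and list 1 (labelled file 0 and file 1), with bars of 1 SD over windows where a list holds at least 5. Black marks give the mean of all autosomal windows of the nucleus; Nanog and Esrrb lie near 10% in Cell26, and 5 loci average between 92.9% and 96.4% over both lists in Cell39.

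A further 3 measures describe the shape of a locus along the axis, each set against the same chromosome. Spread is the mean distance between windows of a locus in 1 list, divided by the mean over the chromosome's 1 Mb tiles. No locus was called in either direction, against 2.74% of tiles called higher and 2.82% lower. The mean ratio was 0.9 for Sox2, 0.91 for Zfp42, 0.95 for Pou5f1, 0.98 for Nanog, 0.99 for Esrrb and 1.08 for Klf4. The Zfp42 ratio ran from 0.214 in Cell39 to 1.42 in Cell38, and that of Klf4 from 0.498 in Cell19 to 1.65 in Cell25. Without Cell39 the mean was 0.985 for Zfp42, 0.954 for Sox2 and 1.02 for Pou5f1. The low mean of Zfp42 rests in large part on that nucleus. Other nuclei moved the other means nearly as much: Pou5f1 was at 1.01 without Cell26, and Sox2 at 0.941 without Cell19. Without windows located in both lists, Zfp42 was 0.21 below its tiles (exact sign-flip permutation p = 0.00195).

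The distance between list 0 and list 1 at a locus, again relative to tiles, could be measured in 7 to 10 nuclei. No locus was called, against 2.53% of tiles called higher and 2.71% lower. Mean ratios ran from 0.88 for Sox2 to 1.11 for Klf4. Without windows located in both lists, Zfp42 was 0.235 ± 0.257 below its tiles over 9 nuclei and would be called (exact sign-flip permutation p = 0.0195). The distance from the midpoint of the axis, as a percentile over the nucleus minus that of the chromosome, gave no call either, against 3.15% of tiles called higher and 2.41% lower. Pou5f1 had a mean of -4.01 ± 12.5 percentile points, which was -0.919 ± 8.3 without Cell26, and Klf4 a mean of 3.87 ± 9.65. The order of the loci changed with the nucleus left out: Nanog was the lowest, at -1.32, without Cell26, and Zfp42 the lowest, at -4.84, without Cell26 and Cell39. None of these differences was called, and the size of difference that so few nuclei could reveal was not tested.

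The last comparison asked whether the 6 loci lay nearer to each other than other parts of the same chromosomes. For each of 15 pairs, the mean distance along the axis between windows of both loci was divided by the mean over all window pairs of the same chromosomes in the same list and nucleus. A ratio under 1 means closer than that mean. The ratio leaves in how near each locus lies to windows elsewhere. A low value therefore need not be particular to the pair. Distance along 1 axis is no distance in space: loci at the same height can lie far apart in the plane of the slice. Of 261090 pairs of tiles on the same chromosomes, 2.84% were called closer and 3.98% farther. Of the 15 pairs of loci, 1 was called closer and 0 farther, and the smallest adjusted p was 0.666. The median ratio over the 15 pairs was 0.98. On average 9 pairs were closer and 6 farther, but without Cell39 only 4 were closer, so that count turns on a single nucleus.

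Nanog and Zfp42 were the pair called closer. Their distance on the axis ran from 0.172 in Cell39 through a median of 0.543 to 1.13 in Cell17, in the axis units of the files. The sampled axis spanned 2 units in Cell39 and 4.4 in Cell17, so these distances are not comparable between nuclei. Relative to other windows of chromosomes 6 and 8, the ratio was under 1 in 9 of 10 nuclei: 0.904 in Cell17, 0.967 in Cell18, 0.884 in Cell19, 0.897 in Cell20, 0.664 in Cell26, 0.894 in Cell27, 0.884 in Cell28, 0.965 in Cell38 and 0.296 in Cell39. Cell25, at 1.11, was the exception. The mean ratio was 0.847, which is 0.153 ± 0.223 under 1 (exact sign-flip permutation p = 0.0156, adjusted p = 0.666), and 1.19% of 18669 tile pairs had a lower mean. Without Cell26 and Cell39 the mean fell by 0.0615 ± 0.0782 below 1 and the call was lost (exact sign-flip permutation p = 0.0625), and it was also lost with windows within 250 kb (exact sign-flip permutation p = 0.0957).

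Pou5f1 and Sox2, whose products bind DNA as partners, had a mean ratio of 0.927 ± 0.241 and were closer in 6 of 10 nuclei (exact sign-flip permutation p = 0.484). Apart from 0.277 in Cell39 their ratio stayed between 0.876 in Cell17 and 1.12 in Cell26, and without Cell39 their mean was 0.999. Pou5f1 and Nanog had a mean ratio of 0.99 ± 0.253 and were closer in 4 of 10 nuclei (exact sign-flip permutation p = 0.879). Their mean was 1.06 without Cell39. Nanog and Sox2 had a mean of 1.07 ± 0.39, with 0.47 in Cell39 and 1.99 in Cell26 (exact sign-flip permutation p = 0.645). It was 0.965 without Cell26 and 1.135 without Cell39. None of the 3 pairs among these core factors was called.

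Among pairs with the supporting factors, Sox2 and Esrrb had a mean ratio of 1.11 ± 0.343 and were farther in 7 of 10 nuclei (exact sign-flip permutation p = 0.377). Their mean was the highest of the 15 with all nuclei, but it held 1.93 in Cell26 and was 1.02 without that nucleus, where Nanog and Esrrb had the highest mean, 1.03. Nanog and Esrrb had a mean of 0.971 ± 0.234, from 0.48 in Cell26 to 1.19 in Cell25 (exact sign-flip permutation p = 0.73). Klf4 and Esrrb stood at 1.03 ± 0.238 (exact sign-flip permutation p = 0.66). Zfp42 had the lowest mean over its 5 pairs, 0.912 ± 0.213, with 5 of 10 nuclei under 1. It was 0.977 without Cell39, where the Zfp42 mean was 0.331, and Zfp42 remained the lowest of the 6 without Cell26, without Cell39 and without both. Sox2 had a mean of 1.02 ± 0.302, which included 1.66 in Cell26. It was 0.952 without Cell26 and 1.09 without Cell39.

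Mean ratios ran from 0.465 to 1.21 over nuclei and from 0.847 to 1.11 over pairs. Without Cell39 they ran from 0.913 to 1.21 over nuclei and from 0.908 to 1.17 over pairs. In Cell39 all 15 pairs were closer, with a mean ratio of 0.465 and a lowest value of 0.184 for Pou5f1 and Zfp42. In the same nucleus 56.2% of tile pairs were closer, with a median ratio of 0.9. In Cell18, 12 of 15 pairs were closer, with a mean of 0.913. In Cell25 and Cell26, 12 and 11 pairs were farther, with means of 1.15 and 1.21. In the remaining 6 nuclei the mean lay between 0.959 and 1.06. The median over tile pairs in the nuclei other than Cell39 lay between 0.992 and 1.03.

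**Figure D4:**
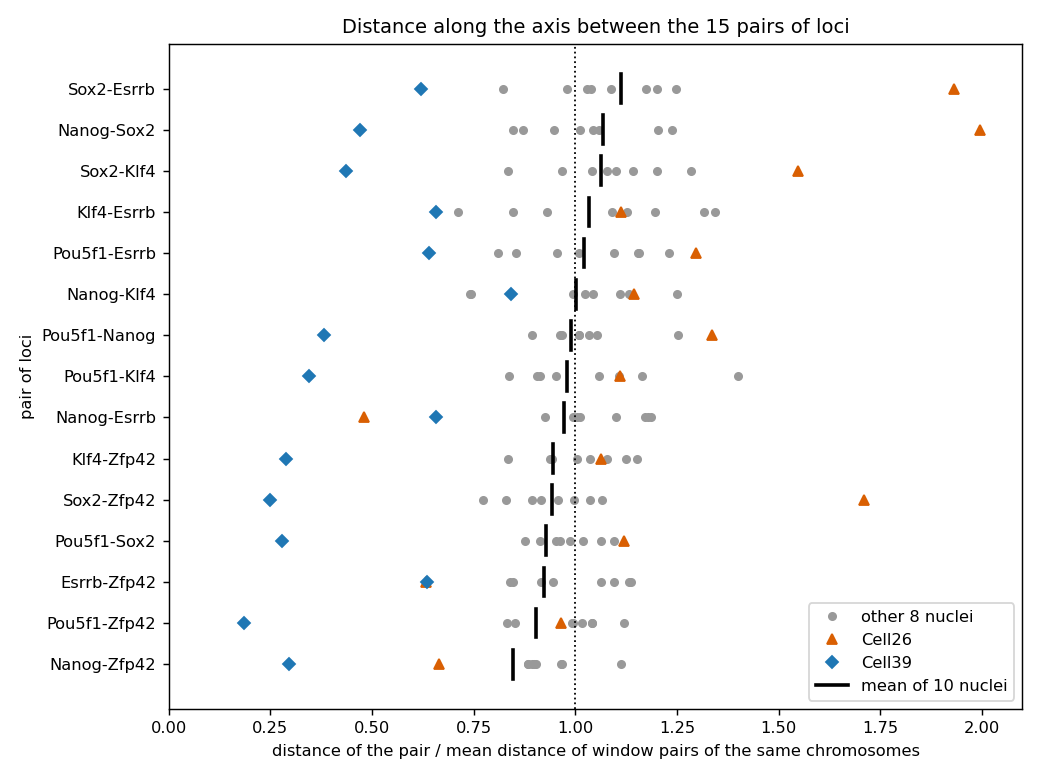
Ratio of the distance between 2 loci to the mean distance of window pairs on the same chromosomes (horizontal axis) for each of 15 pairs (vertical axis), with 1 point for each of 10 nuclei and a bar for their mean. Cell39 lies below the dotted line at 1 for every pair, and Cell26 reaches 1.99 for Nanog and Sox2.

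By the same ratio, the 1 Mb tiles on other chromosomes that lay nearest to each locus were found, as a description over 10 nuclei and over 2104 to 2223 tiles a locus. The tile chr10:106000001-107000000, whose middle is nearest to Ppfia2, had the lowest mean ratio to Pou5f1 (0.779 ± 0.23), to Sox2 (0.85 ± 0.254) and to Zfp42 (0.756 ± 0.196). Its ratio was under 1 in 10 of 10 nuclei for Pou5f1 and for Zfp42 and in 8 for Sox2. The next tile was that of Vwc2 for Pou5f1, at 0.795, that of Hs3st1 for Sox2, at 0.861, and that of Cntn5 for Zfp42, at 0.757. For Nanog the nearest tiles were those of Hdgfl1, at 0.826, and Myt1l, at 0.827. For Klf4 they were those of Cers4, at 0.881, and Atic, at 0.887, and for Esrrb those of Fam135b, at 0.836, and Gpc5, at 0.846. The lowest ratio of the Ppfia2 tile in any nucleus was 0.247 to Pou5f1, 0.394 to Sox2 and 0.254 to Zfp42, and the ranking was not repeated with nuclei left out. Each is among the lowest of at least 2104 values, and none of these tiles held another of the 6 genes.

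Other genes of the pluripotency network and genes of differentiation were measured in the same way, in windows of the same width. Of 29 genes of the naive network, 28 lie on autosomes. Among them Dppa3 lies within the Nanog locus, so its windows overlap those of Nanog and its values are not separate. For coverage 0 of 28 were called in either direction, against 3.49% of tiles called higher and 8.09% lower. Their median difference was 1.14 percentage points. Klf5, a close relative of Klf4, had less spread than its chromosome, by 0.233 ± 0.304 in ratio and in 8 of 10 nuclei (exact sign-flip permutation p = 0.0293, adjusted p = 0.849). It also had closer lists, as did Dppa2, which encodes a chromatin factor of early embryos. Utf1, an embryonic stem cell chromatin gene, lay nearer the midpoint than chromosome 7 in 9 of 10 nuclei, with a difference of -7.64 ± 7.18 percentile points (exact sign-flip permutation p = 0.00391, adjusted p = 0.859). Nr5a2, a nuclear receptor gene, lay farther from it, by 6.71 ± 8.97 (exact sign-flip permutation p = 0.0469, adjusted p = 0.884).

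Of 18 genes of differentiation, Pou3f1, a neural POU factor gene, was the 1 called higher for coverage, by 5.78 ± 6.23 percentage points and in 9 of 10 nuclei (exact sign-flip permutation p = 0.0176, adjusted p = 0.298). For spread 2 were called higher. Foxa2, an endoderm factor gene, had a spread above its chromosome in 10 of 10 nuclei, by 0.33 ± 0.565 in ratio (exact sign-flip permutation p = 0.00195, adjusted p = 0.534). Nes, which encodes the neural filament protein nestin, had a difference of 0.253 ± 0.412 (exact sign-flip permutation p = 0.0371, adjusted p = 0.851). Foxa2 was also called higher for the distance between lists. For each measure and direction 0 to 2 genes of either set were called, and none passed after adjustment. Of all tiles, 3.49% were called higher and 8.09% lower for coverage, and 2.74% and 2.82% for spread. The shares were 2.53% and 2.71% for the distance between lists, and 3.15% and 2.41% for the midpoint. Whether either set exceeds these shares was not tested.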

How the data were processed

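Positions were those the authors deposited: per the file headers, each list holds the start of a 10 kb window and its position along the slicing axis (zaxis), in a unit that is not named. How positions were derived from slices is not given in the sources used here. Per the submitters' processing notes, Trim Galore 0.6.4, Bowtie2 2.3.5 and Picard were used with mm10. DNA was amplified from whole slices, which can change which windows are seen.

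From the 20 lists, windows within 500 kb of each gene were taken, with coordinates from RefSeq's GRCm38.p6. Python 3.11.15, numpy 2.4.6 and pandas 2.3.3 were used. A nucleus was the replicate and its profiles were not. Spread and distances needed at least 5 windows a list, and tests at least 6 nuclei. The exact sign-flip permutation test ran over all 1024 sign patterns of 10 nuclei. It was also run on lists with shuffled positions, for spread, list distance, midpoint distance and pairs, and for spread with some tiles made compact. Coverage was not simulated. Shuffling removes the likeness of neighbouring windows, so these runs differ from the real lists. Batch names were permuted exactly.

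The 6 genes are all printed; other genes are named where a measure had p under 0.05, at most the 3 lowest a set and measure, and the 2 nearest tiles a locus. Members and gene sets were chosen with earlier results of these data known.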

Additional observations from a re-analysis of the deposited data

Results flagged for a closer look

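Of 39 results looked at over the nuclei, 10 held 1 nucleus that stood far from the others, by the gap to its nearest neighbour as a share of the whole range. Chance gives about 1 such value in 20 groups, and results of the same nucleus are not independent. Of the 10 values, 5 came from Cell39 and 3 from Cell26.

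In Cell39 the distance ratio was 0.382 for Pou5f1 and Nanog, 0.277 for Pou5f1 and Sox2, 0.346 for Pou5f1 and Klf4, 0.184 for Pou5f1 and Zfp42, and 0.288 for Klf4 and Zfp42, where the medians over 10 nuclei lay between 0.975 and 1.02. Cell39 also had the fewest located windows of the 10 nuclei, 52534. In Cell26 the ratio was 1.99 for Nanog and Sox2 and 1.93 for Sox2 and Esrrb, and Nanog coverage stood 46.8 percentage points above chromosome 6, against a median of 3.86. In Cell28, Zfp42 coverage differed from chromosome 8 by -12.9 points, against a median of 2.52. In Cell20, Esrrb lay farther from the axis midpoint than chromosome 12 by 24.6 percentile points, against a median of 0.1. No result differed between B16F and B18F by an exact permutation of the batch names.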

How the results depend on the processing

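The call for Pou5f1 coverage held under every alternative with a test except list 1 alone (6.06), and the call for Nanog and Zfp42 was lost under 6: windows within 250 kb (-0.0973), list 1 alone (-0.157), median positions (-0.216), pairs across lists (-0.131), B18F alone (-0.197) and without Cell26 and Cell39 (-0.0615). The last setting was chosen after seeing the data. B16F has 4 nuclei, whose smallest p of 0.125 allows no call, and its values are given without a test.

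Counts of loci and pairs moved with the setting. Of 15 pairs, 9 were closer, 5 within 250 kb and 5 without Cell26 and Cell39, and 4 to 11 with 1 nucleus left out. Of 6 loci, 5 had less spread than their tiles, but 3 did within 250 kb, 3 without windows in both lists, 3 with at least 10 windows a list, 2 without Cell26 and Cell39, and 2 to 5 with 1 nucleus left out. Lists were closer at 5 of 6, but at 2 within 250 kb, 2 without windows in both lists, 3 with at least 10 windows a list, 3 in B18F alone, 2 without Cell26 and Cell39, and 3 to 5 with 1 left out. Nearer the midpoint lay 1 of 6, but 2 within 250 kb, 3 on grid positions, 2 without windows in both lists, 3 with list 0, 2 with list 1, 4 in B16F, 3 without Cell26 and Cell39, and 1 to 3 with 1 left out.

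Coverage passed the test only under some alternatives for Nanog (all windows as slots 7.79, as a ratio 0.277, without Cell25 8.76), Sox2 (within 1 Mb 5.87, grid positions 4.75, all windows as slots 6.85) and Klf4 (without windows in both lists -2.09). So did, for Zfp42, coverage (without Cell28 2.51, without windows in both lists 4.07), spread (-0.2097) and the distance between lists (-0.235), both without windows in both lists, the midpoint distance of Esrrb (list 1 alone 4.43) and the pair of Pou5f1 and Sox2 (median positions -0.401).

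Of 804 values recomputed, 125 changed sign; those from settings with fewer than 6 nuclei have no test and are not listed. Only Nanog and Esrrb without windows in both lists passed the test after the change (0.12, exact sign-flip permutation p = 0.0234). Values are differences from the chromosome or ratios minus 1. With grid positions only, the sign turned for coverage of Klf4 0.109, Zfp42 -0.732 and for distance from the midpoint of Nanog -0.662, Esrrb -0.9598 and for pair distance of Pou5f1-Nanog 0.0106, Pou5f1-Esrrb -0.000262, Nanog-Klf4 -0.00765, Klf4-Esrrb -0.0103. Without windows located in both lists, the sign turned for coverage of Esrrb -2.48 and for spread of Pou5f1 0.0111, Nanog 0.0118, Klf4 -0.00648, Esrrb 0.00587 and for distance between lists of Pou5f1 0.0992 and for distance from the midpoint of Nanog -2.67 and for pair distance of Pou5f1-Sox2 0.0184, Pou5f1-Klf4 0.0146, Nanog-Esrrb 0.1203, Sox2-Klf4 -0.0298, Klf4-Esrrb -0.0462. With windows within 250 kb, the sign turned for coverage of Zfp42 -4.84 and for spread of Esrrb 0.0451, Zfp42 0.0504 and for distance between lists of Sox2 0.0279, Esrrb 0.186, Zfp42 0.00605 and for distance from the midpoint of Nanog -0.542 and for pair distance of Nanog-Esrrb 0.0807, Sox2-Zfp42 0.0746, Klf4-Zfp42 0.0669, Esrrb-Zfp42 0.05304. With windows within 1 Mb, the sign turned for coverage of Zfp42 -0.393 and for pair distance of Pou5f1-Nanog 0.000739, Nanog-Klf4 -0.03797, Klf4-Esrrb -0.00623. In B18F alone, the sign turned for coverage of Zfp42 -0.339 and for spread of Nanog 0.0151 and for pair distance of Pou5f1-Nanog 0.00345. Without Cell26 and Cell39, the sign turned for spread of Pou5f1 0.09701, Nanog 0.0357, Esrrb 0.0833 and for distance between lists of Pou5f1 0.0834, Nanog 0.0323 and for distance from the midpoint of Nanog -0.396, Zfp42 -4.84 and for pair distance of Pou5f1-Nanog 0.0225, Pou5f1-Klf4 0.0422, Nanog-Esrrb 0.0714, Klf4-Zfp42 0.0135. With at least 10 windows a list, the sign turned for spread of Nanog 0.0128, Esrrb 0.0548 and for distance between lists of Pou5f1 0.0169 and for pair distance of Pou5f1-Nanog 0.0124, Nanog-Klf4 -0.00415, Nanog-Esrrb 0.0315, Sox2-Klf4 -0.000615, Sox2-Zfp42 0.0251. With the median position as centre, the sign turned for distance from the midpoint of Pou5f1 0.307, Zfp42 -9.76. With list 0 alone, the sign turned for distance from the midpoint of Nanog -1.79, Esrrb -4.01. With list 1 alone, the sign turned for distance from the midpoint of Sox2 -0.448 and for pair distance of Pou5f1-Nanog 0.000602. With median positions of loci, the sign turned for pair distance of Pou5f1-Nanog 0.106, Nanog-Klf4 -0.0322, Nanog-Esrrb 0.0197, Sox2-Zfp42 0.168, Klf4-Zfp42 0.0478. Leaving out 1 nucleus at a time turned the spread of Pou5f1 -0.08999 to 0.02099, Nanog -0.0632 to 0.0329, Esrrb -0.0526 to 0.0446. Leaving out 1 nucleus at a time turned the distance between lists of Pou5f1 -0.0995 to 0.0101, Nanog -0.0704 to 0.0431, Esrrb -0.0686 to 0.0626. Leaving out 1 nucleus at a time turned the distance from the midpoint of Nanog -1.32 to 1.68, Esrrb -0.0298 to 3.72, Zfp42 -1.97 to 3.02. Leaving out 1 nucleus at a time turned the pair distance of Pou5f1-Nanog -0.0487 to 0.0572, Pou5f1-Klf4 -0.0676 to 0.0496, Pou5f1-Esrrb -0.0107 to 0.0623, Nanog-Sox2 -0.0347 to 0.135, Nanog-Klf4 -0.0255 to 0.0311, Nanog-Esrrb -0.05302 to 0.0254, Sox2-Zfp42 -0.143 to 0.0195, Klf4-Esrrb -0.00128 to 0.07495, Klf4-Zfp42 -0.0771 to 0.0189. The cause of these changes was not tested, and depth could not be weighed because no read counts accompany the positions.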
